A study of Mus musculus with 12 samples.

Results

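The Nduf genes encode the subunits of respiratory complex I (NADH:ubiquinone oxidoreductase) and the proteins that assemble it. They were taken here as every gene whose deposited symbol starts with Nduf, with names ending in -ps left out. The rule found 49 of the 14957 genes in the count tables of 12 mouse hearts, and all 49 were among the 13910 genes tested. They fell into 37 subunit genes, 8 assembly factor genes with the prefix Ndufaf, and 4 others that are not subunits of the enzyme. Those 4 were Ndufa4, which encodes a subunit of complex IV, its paralogue Ndufa4l2, and Ndufs6b and Ndufb4c, which GENCODE vM21 annotates as processed pseudogenes. Ndufb1 was kept under the files' name, although that annotation calls the same identifier Ndufb1-ps and types it as a long noncoding RNA from a bidirectional promoter.

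RNA was sequenced from ventricles of wild-type C57Bl/6J mice in 3 groups of 4. TAC-BacNav mice had transverse aortic constriction (TAC), a band on the aortic arch that overloads the left ventricle with pressure, and received AAV9-MHCK7-BacNav-mScarlet. TAC-mScarlet mice had the same constriction and received AAV9-MHCK7-mScarlet, the vector without BacNav, an engineered bacterial sodium channel. Sham-NT mice were sham animals given PBS and no vector, so that constriction and vector cannot be told apart between TAC-mScarlet and Sham-NT. MHCK7 is a promoter active in heart and skeletal muscle, mScarlet is a red fluorescent protein, and the sources used here do not give the times of surgery, injection and collection.

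Complex I is the entry point of electrons from NADH into the respiratory chain. Its N module oxidises NADH, its Q module passes the electrons to ubiquinone, and its membrane-bound P module pumps protons out of the matrix. Cardiac muscle depends on oxidative phosphorylation for most of its ATP and is rich in the enzyme. The genes for the subunits that mitochondrial DNA encodes were not analysed here.

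The subunit genes lay on 16 chromosomes, and promoter sequence is a feature the choice by name did not use. RefSeq promoters (GRCm38.p6, 250 bases before to 50 after the start) were matched by symbol for 33 of 37 subunit genes and 7 of 8 Ndufaf genes. The promoters of 5 genes are printed 5′ to 3′ on the gene's strand because together they show each motif searched and one gene, Ndufv1, without any. Capitals mark a match on either strand.
Ndufv1, chr19:4012706-4013005, minus strand, no match:
Ndufv1: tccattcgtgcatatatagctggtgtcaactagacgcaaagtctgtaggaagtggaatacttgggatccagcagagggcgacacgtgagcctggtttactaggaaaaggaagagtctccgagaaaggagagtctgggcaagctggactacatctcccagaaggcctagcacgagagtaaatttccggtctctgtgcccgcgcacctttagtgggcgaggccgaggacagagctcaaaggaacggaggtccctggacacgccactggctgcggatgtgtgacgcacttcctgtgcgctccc
Ndufs5, chr4:123718137-123718436, minus strand, matches to the NRF1 and ERR motifs:
Ndufs5: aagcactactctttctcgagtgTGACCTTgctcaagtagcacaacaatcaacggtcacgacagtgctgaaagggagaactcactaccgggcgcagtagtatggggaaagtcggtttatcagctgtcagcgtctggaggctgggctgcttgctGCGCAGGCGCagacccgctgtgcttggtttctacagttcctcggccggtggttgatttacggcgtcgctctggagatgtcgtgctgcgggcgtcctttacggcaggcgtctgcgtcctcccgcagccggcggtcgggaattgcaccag
Ndufa5, chr6:24527477-24527776, minus strand, a match to the NRF1 motif:
Ndufa5: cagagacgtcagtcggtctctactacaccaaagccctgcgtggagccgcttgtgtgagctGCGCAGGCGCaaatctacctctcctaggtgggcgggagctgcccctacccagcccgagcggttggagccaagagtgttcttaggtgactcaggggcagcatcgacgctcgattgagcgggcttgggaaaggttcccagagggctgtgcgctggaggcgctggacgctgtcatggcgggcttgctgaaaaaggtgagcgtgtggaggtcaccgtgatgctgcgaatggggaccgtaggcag
Ndufs7, chr10:80249199-80249498, plus strand, a match to the YY1 motif:
Ndufs7: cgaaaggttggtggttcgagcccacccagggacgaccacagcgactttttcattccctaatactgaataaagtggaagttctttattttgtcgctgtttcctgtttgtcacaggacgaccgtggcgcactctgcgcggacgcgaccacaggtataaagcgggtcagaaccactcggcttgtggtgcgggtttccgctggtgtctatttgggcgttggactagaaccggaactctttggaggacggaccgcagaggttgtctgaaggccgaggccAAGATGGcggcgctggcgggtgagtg
Ndufs8, chr19:3912725-3913024, minus strand, a match to the GABPA motif:
Ndufs8: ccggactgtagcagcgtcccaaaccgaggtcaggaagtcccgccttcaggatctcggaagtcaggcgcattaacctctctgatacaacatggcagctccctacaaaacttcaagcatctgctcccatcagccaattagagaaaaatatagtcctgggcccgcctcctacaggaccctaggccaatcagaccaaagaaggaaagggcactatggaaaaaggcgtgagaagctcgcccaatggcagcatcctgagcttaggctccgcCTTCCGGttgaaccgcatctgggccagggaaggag

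All motifs were searched on both strands. NRF1 and GABPA are transcription factors known for binding promoters of respiratory chain genes. The NRF1 motif was in 7 of 33 subunit promoters (21.2%) and 2 of 7 Ndufaf promoters (28.6%), against 9.85% of the promoters of 10910 genes of the count tables with a RefSeq entry. The GABPA motif CCGGAAG was in 4 subunit promoters (12.1%) and 2 Ndufaf promoters (28.6%), against 17.3% of all. AAGGTCA, bound by the oestrogen-related receptors, was in 3 subunit promoters (9.09%) and no Ndufaf promoter, against 3.22% of all. AAGATGG, the core of the YY1 site, was in 7 subunit promoters (21.2%) and 1 Ndufaf promoter (14.3%), against 7.07% of all. These are matches of letters in a short window, not measured binding.

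Library totals ran from 7.36 to 11.5 M counts (mega-counts) in TAC-BacNav, from 8.28 to 9.81 M in TAC-mScarlet and from 5.36 to 7.84 M in Sham-NT. Levels below are counts per mega-count (CPM) of the TMM-scaled library. All 8 ventricular cardiomyocyte markers were detected, with summed levels from 57772 to 96092 CPM, whereas the 2 atrial markers counted summed to between 2.00 and 8.15 CPM. A library's subunit level was summarised as the median, over the 37 genes, of its log2 difference from the mean of all libraries. TAC-BacNav 4 and Sham-NT 3 stood apart in it, so results that rest on them are also given without them. TAC-BacNav 4 was at -0.50, against -0.03 to 0.13 in the other TAC-BacNav libraries. Sham-NT 3 was at -0.15, against 0.39 to 0.52 in the other Sham-NT libraries, and the TAC-mScarlet libraries lay between -0.30 and -0.15.

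**Figure D1:**
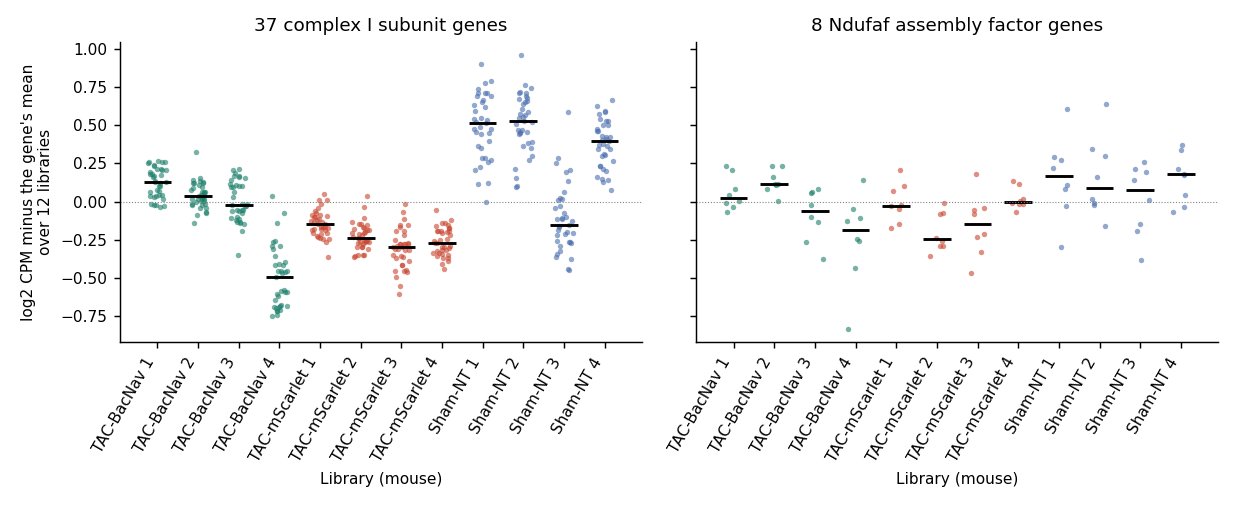
Log2 deviation of each gene from its mean over the 12 libraries, by library, for complex I subunit genes and Ndufaf genes. TAC-BacNav 4 (-0.50) is the lowest library and Sham-NT 3 (-0.15) lies with the TAC-mScarlet libraries (-0.30 to -0.15), apart from the other Sham-NT libraries (0.39 to 0.52).

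Both libraries were lower in short than in long subunit transcripts. Over all tested genes, the slope of log2 deviation on log2 transcript length was 0.108 in TAC-BacNav 4 and 0.065 in Sham-NT 3. It was 0.072 in TAC-mScarlet 2, so a slope of this size was not particular to them. Sham-NT 1, 2 and 4, the libraries with the highest subunit levels, had slopes of the opposite sign, -0.071, -0.079 and -0.060. The remaining libraries lay between -0.032 and 0.028. In TAC-BacNav 4, 36 of 37 subunit genes were below the mean of the other TAC-BacNav libraries, by a median log2 difference of -0.66 for the 25 genes with transcripts under 1000 nucleotides and -0.37 for the 12 longer ones. Ndufa13 was farthest below, at -0.83. In Sham-NT 3, 34 of 37 were below the mean of the other Sham-NT libraries, with medians of -0.76 for the short and -0.23 for the long transcripts. Ndufb2, with a transcript of 2413 nucleotides, was farthest below at -1.21, while Ndufs1, the longest subunit transcript at 2625.5 nucleotides, was above by 0.53, Ndufa9 by 0.14 and Ndufa10 by 0.13. Over the 37 genes the correlation of this difference with log2 transcript length was r = 0.59 and rho = 0.55 for TAC-BacNav 4, and r = 0.52 and rho = 0.51 for Sham-NT 3. The genes of a correlation share one library, so these are descriptions. What makes the libraries differ was not tested.

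**Figure D2:**
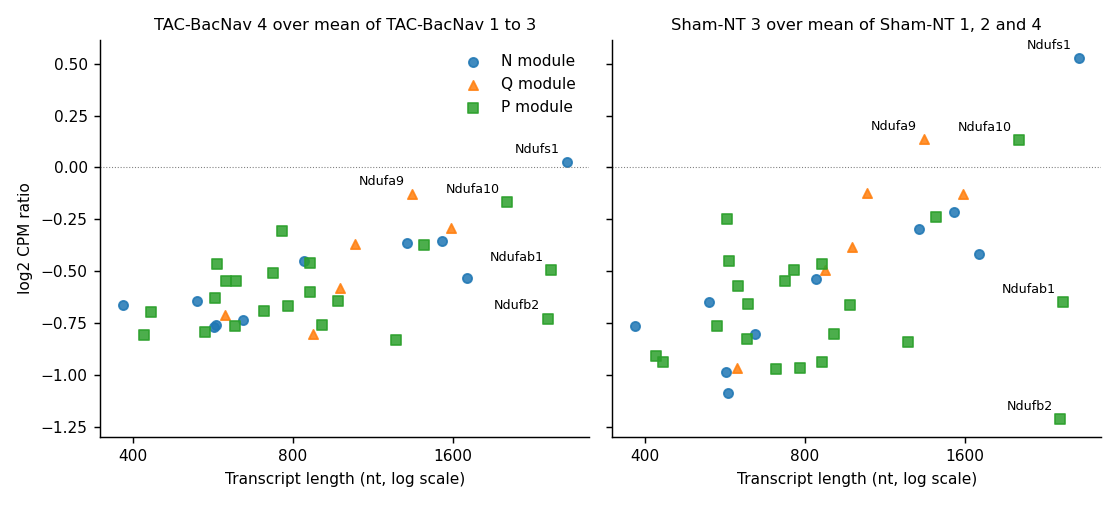
Log2 difference of TAC-BacNav 4 from the mean of the other TAC-BacNav libraries (left) and of Sham-NT 3 from the mean of the other Sham-NT libraries (right) against transcript length (log axis, nucleotides), one point per subunit gene, coloured by module. Short transcripts lie lower in both (medians of -0.66 and -0.76 under 1000 nucleotides), and Ndufs1 is the highest point in both.

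In ventricles of TAC-mScarlet mice, complex I subunit transcripts were lower than in Sham-NT ventricles. Of 37 subunit genes, 16 fell and 0 rose at an adjusted p below 0.05 (quasi-likelihood test of edgeR, Benjamini-Hochberg adjustment over 13910 genes), whereas 2.52% of all tested genes fell and 2.65% rose. All 37 had a log2 fold change below 0, as did 49.5% of all genes. Subunit genes read in the same mice moved together by library, so these are not 37 separate observations. The fold changes ran from -0.94 (Ndufb2) to -0.20 (Ndufb3) with a median of -0.58, against 0.00 for all genes. At an unadjusted p below 0.05, 34 subunit genes were lower and 0 higher, against 11.2% and 11.0% of all genes. In 19 subunit genes every TAC-mScarlet library was below every Sham-NT library and in 0 above, orders found in 6.78% and 6.33% of all genes. Summed over the 37 genes, subunit transcripts made up 15845 ± 871 CPM in TAC-mScarlet and 23595 ± 3888 CPM in Sham-NT (SD, n = 4 each).

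The call count depended on single libraries. Without Sham-NT 3 it was 31 of 37, against 610 of all 14159 genes tested in that fit. With both Sham-NT 3 and TAC-BacNav 4 left out it was 33, which held all 16, against 823 of all 14046 genes. Sham-NT 3 was set aside for its low subunit level, so the larger counts without it are no independent support. The count was 8 without TAC-mScarlet 1, 2 without TAC-mScarlet 2, 1 without Sham-NT 1, and 0 when TAC-mScarlet 3, TAC-mScarlet 4, Sham-NT 2 or Sham-NT 4 was left out. The direction did not depend on them, since all 37 fold changes stayed below 0 in each of these fits, with medians from -0.69 to -0.52. The immediate early gene Fos split the libraries at 20 CPM. Above it, with TAC-mScarlet 1 to 3 against Sham-NT 1 and 2, 31 subunits were called lower and the median was -0.71, against 425 of all 14208 genes lower. Below it stood 1 TAC-mScarlet library, TAC-mScarlet 4, against Sham-NT 3 and Sham-NT 4, too few to set beside that count, and the median there was -0.43. All 37 fold changes were below 0 on both sides. Scaling to the library size alone moved the median of all genes to 0.13 and that of the subunits to -0.45, with 10 subunits called and 205 genes lower and 698 higher over all genes, against 350 lower and 369 higher with TMM scaling.

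**Figure D3:**
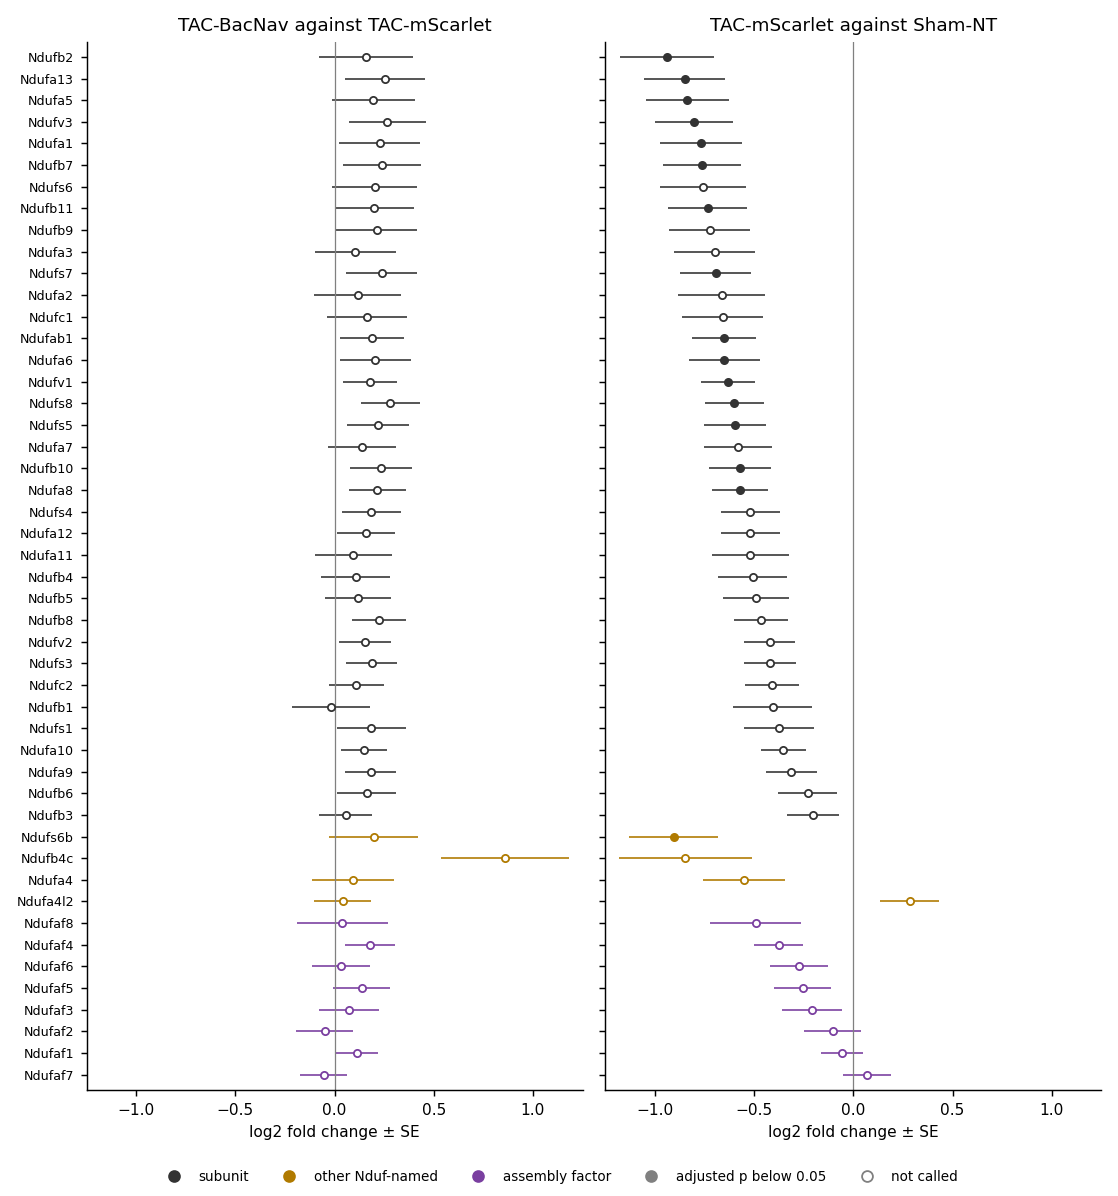
Log2 fold change with its standard error for the Nduf genes, grouped by role, in TAC-BacNav against TAC-mScarlet (left) and TAC-mScarlet against Sham-NT (right); filled points have an adjusted p below 0.05. In the right panel the subunit genes shown lie below 0, from -0.94 to -0.20, and in the left panel they lie between -0.02 and 0.28 with no filled point.

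Subunit transcripts fell in each module, beside a share of 2.52% of all genes that fell. In the N module 3 of 10 genes fell, with a median log2 fold change of -0.61. In the Q module 4 of 6 fell, with a median of -0.56, and in the P module 9 of 21, with a median of -0.57. Core subunits are conserved from bacteria, and those with Nduf genes carry the catalytic centres. Of these 7, 4 fell (median -0.52), and 12 of the 30 accessory subunits fell (median -0.59). The core subunits that mitochondrial DNA encodes are not among them.

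Ndufv1 (ENSMUSG00000037916.14, chr19:4007384-4012806, minus strand, GRCm38) encodes the core subunit of the N module that holds the FMN and the NADH site, and it had the smallest p of the subunits. In TAC-BacNav mice 1 to 4 Ndufv1 was at 816, 688, 658 and 564 CPM, in TAC-mScarlet mice at 667, 650.1, 511 and 577 CPM and in Sham-NT mice at 920.1, 1037, 832 and 937 CPM. Every TAC-mScarlet library was below every Sham-NT library, and Sham-NT 3 was the lowest of its group but still above all TAC libraries. The log2 fold change in TAC-mScarlet against Sham-NT was -0.63 ± 0.14 (SE; adjusted p = 0.0245), a fall of 35.4% relative to Sham-NT that was called in 4 of the 8 fits without 1 library. The other called subunit genes named here passed in 1 or 2 of those fits.

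Ndufa13, chr8:69894180-69902558 on the minus strand, encodes an accessory subunit in the membrane arm, also known as GRIM-19. The TAC-BacNav libraries 1 to 4 held 511, 514, 560.5 and 297 CPM of Ndufa13, the TAC-mScarlet libraries 433, 393, 362 and 391 CPM and the Sham-NT libraries 792, 817, 447 and 791 CPM. TAC-BacNav 4 was the lowest of all 12 libraries, and Sham-NT 3 stood close to the TAC-mScarlet range, though above its highest library. The log2 fold change in TAC-mScarlet against Sham-NT was -0.85 ± 0.20 (SE; adjusted p = 0.0305). Exons of Tssk6 overlap it on the opposite strand.

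Ndufv3, chr17:31520115-31531331 on the plus strand, encodes an accessory subunit of the N module. Levels of Ndufv3 were 577, 499.6, 479.6 and 312 CPM in TAC-BacNav mice 1 to 4, 422, 381, 384 and 367 CPM in TAC-mScarlet and 814, 761, 435 and 705 CPM in Sham-NT. TAC-BacNav 4 was again the lowest library, and Sham-NT 3 was just above the TAC-mScarlet libraries. Its log2 fold change was -0.80 ± 0.19 (SE; adjusted p = 0.0317).

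Ndufab1, chr7:122085403-122101886 on the minus strand, encodes the mitochondrial acyl carrier protein, which serves both as a complex I subunit and in mitochondrial fatty acid synthesis. Ndufab1 had 457, 444, 465 and 323 CPM in TAC-BacNav mice 1 to 4, 392, 378, 324 and 388 CPM in TAC-mScarlet mice 1 to 4 and 671, 649, 408 and 597 CPM in Sham-NT mice 1 to 4. TAC-mScarlet 3 and TAC-BacNav 4 were lowest, and Sham-NT 3 was above all TAC-mScarlet libraries but below 3 of the TAC-BacNav libraries. The log2 fold change in TAC-mScarlet against Sham-NT was -0.65 ± 0.16 (SE; adjusted p = 0.0338).

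**Figure D4:**
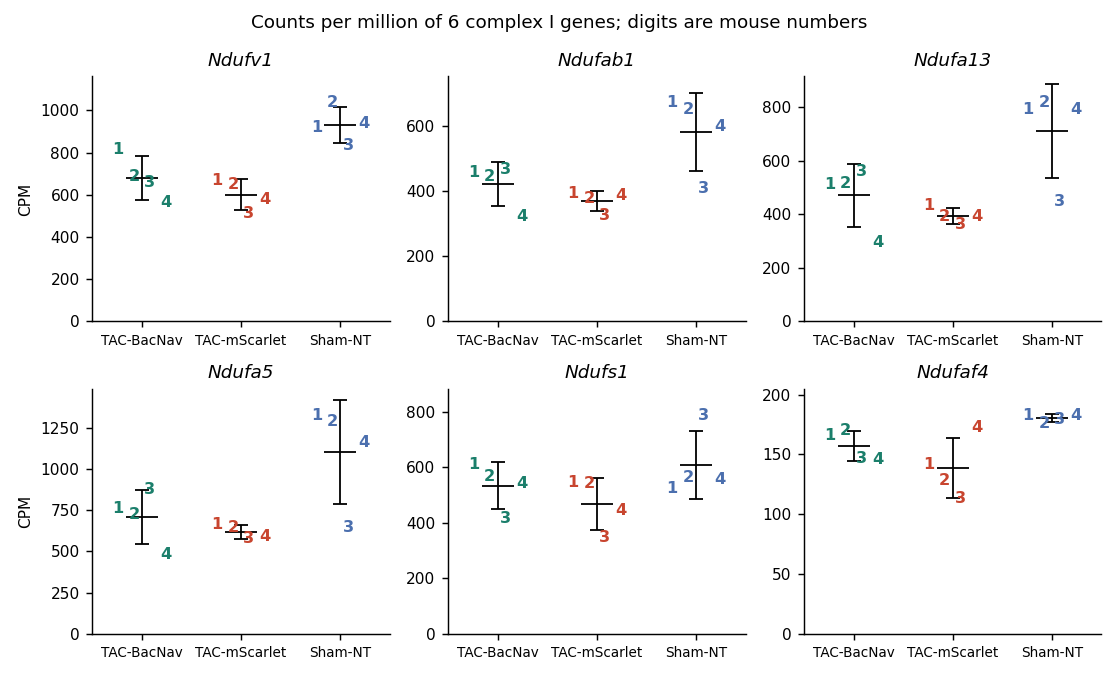
CPM of 6 Nduf genes in each mouse (digits are mouse numbers), with the mean and SD of each group (n = 4) as a line and bar; each panel has its own axis. Ndufv1, Ndufab1 and Ndufa13 do not overlap between TAC-mScarlet and Sham-NT, Ndufa5 overlaps through Sham-NT 3 (645 CPM), and in Ndufs1 Sham-NT 3 is the highest library (789 CPM).

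Per kilobase of transcript, Ndufb10 was the most abundant subunit gene (1479 CPM per kb over all libraries) followed by Ndufa5 (1364 CPM per kb). Ndufb10 encodes an accessory subunit of the P module. In TAC-BacNav mice 1 to 4 Ndufb10 was at 1269, 1069, 1045 and 793 CPM, in TAC-mScarlet mice at 964, 873, 849 and 859.7 CPM and in Sham-NT mice at 1482, 1450.0, 979 and 1361 CPM. Its log2 fold change was -0.57 ± 0.16 (SE; adjusted p = 0.0471), with Sham-NT 3 separated from the highest TAC-mScarlet library by a small margin. Ndufa5 encodes an accessory subunit of the Q module. The TAC-BacNav libraries 1 to 4 held 760.3, 723, 875 and 479 CPM of Ndufa5, the TAC-mScarlet libraries 666, 644, 578 and 588 CPM and the Sham-NT libraries 1328, 1289, 645 and 1162 CPM. Here Sham-NT 3 fell inside the TAC-mScarlet range, so that the groups overlapped, and the log2 fold change was -0.84 ± 0.21 (SE; adjusted p = 0.0349). Sham-NT 3 was at or below the highest TAC-mScarlet library in 17 of 37 subunit genes, whereas Sham-NT 1, 2 and 4 were all above every TAC-mScarlet library in 36 of 37. Leaving out Sham-NT 3, picked for its low subunit level, makes that order easier to meet. The shares of all genes with these orders were not computed.

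Both core iron-sulfur subunits of the Q module that hand electrons on to ubiquinone fell as well. The log2 fold change of Ndufs8 was -0.60 ± 0.15 (SE; adjusted p = 0.0343) and that of Ndufs7 -0.69 (adjusted p = 0.0373). Those that fell also included the accessory members Ndufa1, Ndufa6, Ndufa8, Ndufb2, Ndufb7, Ndufb11 and Ndufs5, with log2 fold changes from -0.94 to -0.57. The 4 subunit genes nearest the threshold on the other side were Ndufb9, Ndufa12, Ndufs6 and Ndufs4, with adjusted p-values from 0.0527 to 0.0547. Exons of other genes overlap 17 of the 37 subunit genes, 15 of them on the opposite strand, which makes their counts uncertain.

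Ndufs1, the core iron-sulfur subunit at the tip of the N module, had another order of libraries than the genes above. Levels of Ndufs1 were 610.3, 568, 414 and 540.4 CPM in TAC-BacNav mice 1 to 4, 546, 540.2, 346 and 445 CPM in TAC-mScarlet and 526, 563, 789 and 555 CPM in Sham-NT. Sham-NT 3 was the highest library, TAC-mScarlet 3 the lowest, and the other Sham-NT libraries lay among the TAC libraries. Its log2 fold change in TAC-mScarlet against Sham-NT was -0.37 ± 0.17 (SE; adjusted p = 0.220). Ndufa10 and Ndufa9, an accessory subunit of the P module and one of the Q module, likewise had their highest Sham-NT value in Sham-NT 3 and missed the threshold, at -0.35 ± 0.11 (adjusted p = 0.0800) and -0.31 ± 0.13 (adjusted p = 0.165).

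Transcript length moved with the comparison. Among all tested genes the median log2 fold change in TAC-mScarlet against Sham-NT was -0.22 for transcripts under 500 nucleotides, -0.12 from 500 to 1000 and 0.05 above 4000. The subunit genes had medians of -0.70 (3 genes), -0.59 (22 genes) and, for 4 genes from 2000 to 4000 nucleotides, -0.51. After a correction for transcript length, added after seeing the data, the subunit median was -0.49 and 26 subunits were called lower, against 549 of all 13910 genes. With Sham-NT 3 and TAC-BacNav 4 also left out, the subunit median was -0.54 and 30 subunits were lower, against 737 of all 14046 genes.

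Markers of cardiomyocytes moved the same way. The summed level of the 8 ventricular cardiomyocyte markers was 57772 to 75981 CPM in TAC-mScarlet and 87756 to 96092 CPM in Sham-NT. Of the 8, 3 fell, against 2.52% of all genes, and the median log2 fold change of the 8 was -0.47. The ratio of the subunit sum to the marker sum was 0.223, 0.223, 0.257 and 0.222 in TAC-mScarlet mice 1 to 4 and 0.274, 0.275, 0.205 and 0.251 in Sham-NT mice 1 to 4, so the groups overlapped in it through Sham-NT 3 and TAC-mScarlet 3. Fibroblast markers summed to 1418 to 3526 CPM in TAC-mScarlet, highest in TAC-mScarlet 3, and 926 to 1149 CPM in Sham-NT. In whole ventricle, fewer cardiomyocytes and less of these transcripts in each one cannot be told apart, and the part of cell composition in the fall was not tested.

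Among the assembly factors, 0 of 8 Ndufaf genes passed the threshold in TAC-mScarlet against Sham-NT (edgeR's quasi-likelihood test). Over all genes 2.52% fell and 2.65% rose, and 0 of 8 lies near these shares. At an unadjusted p below 0.05, 2 Ndufaf genes were lower and 0 higher, against 11.2% and 11.0% of all genes. DESeq2 called 1 Ndufaf gene and limma-voom 0. The log2 fold changes of the Ndufaf genes ran from -0.49 to 0.07 with a median of -0.23, 7 of 8 being below 0 with TMM scaling and 5 of 8 with scaling to the library size. They are also far less abundant per kilobase than the subunits, with a median of 36.9 CPM per kb (15.9 to 69.7), against 502 CPM per kb (30.5 to 1479) for the 37 subunit genes. The difference between the lists was not tested.

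Ndufaf3 and Ndufaf4 work together in building the Q module. Ndufaf4 had 166, 170.0, 146 and 146 CPM in TAC-BacNav mice 1 to 4, 142, 128, 114 and 172 CPM in TAC-mScarlet mice 1 to 4 and 183, 176, 179 and 183 CPM in Sham-NT mice 1 to 4. Ndufaf4 was lower in every TAC library than in every Sham-NT library, an order found in 6.78% of all genes for TAC-mScarlet. Its log2 fold change in TAC-mScarlet against Sham-NT was -0.38 ± 0.12 (SE; adjusted p = 0.0863). In TAC-BacNav mice 1 to 4 Ndufaf3 was at 29.5, 34.6, 31.2 and 21.7 CPM, in TAC-mScarlet mice at 28.8, 27.7, 25.01 and 29.5 CPM and in Sham-NT mice at 31.1, 37.5, 26.5 and 33.3 CPM. These overlapped for Ndufaf3, at -0.21 ± 0.15 (adjusted p = 0.460).

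Ndufaf5 hydroxylates an arginine of Ndufs7, and Ndufaf8 is its partner. The TAC-BacNav libraries 1 to 4 held 40.9, 38.9, 28.8 and 31.8 CPM of Ndufaf5, the TAC-mScarlet libraries 36.4, 29.4, 27.5 and 34.4 CPM and the Sham-NT libraries 37.5, 35.1, 34.9 and 45.0 CPM. Levels of Ndufaf8 were 28.4, 35.0, 31.1 and 16.6 CPM in TAC-BacNav mice 1 to 4, 26.4, 23.2, 28.6 and 29.5 CPM in TAC-mScarlet and 45.4, 46.5, 22.8 and 37.7 CPM in Sham-NT. The largest Ndufaf difference was that of Ndufaf8, with a log2 fold change at -0.49 ± 0.23 (SE; adjusted p = 0.221), and it too had Sham-NT 3 and TAC-BacNav 4 as the low libraries of their groups. Ndufaf5 was at -0.26 ± 0.14 (adjusted p = 0.318).

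Ndufaf6 acts early in assembly, and Ndufaf7 is a protein arginine methyltransferase that acts on a core subunit. Ndufaf6 had 25.7, 24.0, 17.1 and 18.6 CPM in TAC-BacNav mice 1 to 4, 21.9, 18.6, 21.0 and 22.04 CPM in TAC-mScarlet mice 1 to 4 and 27.0, 22.1, 26.7 and 25.2 CPM in Sham-NT mice 1 to 4. Every TAC-mScarlet library lay just below the lowest Sham-NT library for Ndufaf6, and its log2 fold change was -0.27 ± 0.15 (SE; adjusted p = 0.292). In TAC-BacNav mice 1 to 4 Ndufaf7 was at 34.4, 35.4, 36.7 and 34.1 CPM, in TAC-mScarlet mice at 40.9, 35.1, 34.3 and 35.7 CPM and in Sham-NT mice at 28.7, 34.7, 41.0 and 34.4 CPM. Ndufaf7 was the one assembly factor above 0, at 0.07 ± 0.12 (adjusted p = 0.804), and its groups overlapped throughout.

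Ndufaf1 belongs to the complex that assembles the membrane arm, and Ndufaf2 acts late, when the N module is added. The TAC-BacNav libraries 1 to 4 held 85.3, 92.9, 84.4 and 94.7 CPM of Ndufaf1, the TAC-mScarlet libraries 82.8, 81.4, 73.9 and 93.0 CPM and the Sham-NT libraries 84.1, 76.9, 94.7 and 88.3 CPM. Levels of Ndufaf2 were 43.9, 45.3, 38.8 and 36.0 CPM in TAC-BacNav mice 1 to 4, 45.8, 34.9, 48.3 and 40.6 CPM in TAC-mScarlet and 52.3, 52.5, 37.3 and 40.7 CPM in Sham-NT. Neither separated the groups, with log2 fold changes in TAC-mScarlet against Sham-NT of -0.06 ± 0.11 (adjusted p = 0.814) for Ndufaf1 and -0.10 ± 0.14 (adjusted p = 0.733) for Ndufaf2.

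Of 12 tested assembly factors without Nduf names, 2 fell and 0 rose, against 2.52% and 2.65% of all genes, and the median was -0.17. Ecsit, a partner of Ndufaf1, was 90.3 ± 12.0 CPM in TAC-mScarlet and 124 ± 13.5 CPM in Sham-NT (SD, n = 4 each; log2 fold change -0.46 ± 0.12 SE, adjusted p = 0.0400). Tmem70, which also serves the assembly of ATP synthase, was 164 ± 10.7 CPM in TAC-mScarlet and 214 ± 11.7 CPM in Sham-NT (-0.38 ± 0.10, adjusted p = 0.0442).

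The 4 Nduf-named genes that are not subunits went several ways. Ndufa4 was the most abundant Nduf gene per kilobase (3641 CPM per kb). Ndufa4 had 1795, 1709, 1601 and 971 CPM in TAC-BacNav mice 1 to 4, 1503, 1436, 1447 and 1304 CPM in TAC-mScarlet mice 1 to 4 and 2496, 2470.3, 1289.7 and 2077 CPM in Sham-NT mice 1 to 4. TAC-BacNav 4 was lowest and Sham-NT 3 lay below every TAC-mScarlet library, and the log2 fold change in TAC-mScarlet against Sham-NT was -0.55 ± 0.21 (SE; adjusted p = 0.130). In TAC-BacNav mice 1 to 4 Ndufa4l2 was at 25.7, 27.5, 19.6 and 20.3 CPM, in TAC-mScarlet mice at 23.7, 21.9, 25.9 and 19.0 CPM and in Sham-NT mice at 19.8, 17.4, 17.3 and 19.9 CPM. Ndufa4l2, known as a target of hypoxia-inducible factor, had a positive log2 fold change in TAC-mScarlet against Sham-NT of 0.28 ± 0.15 (SE; adjusted p = 0.280), with overlapping groups.

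Ndufs6b fell, at -0.91 ± 0.22 (SE; adjusted p = 0.0342). The TAC-BacNav libraries 1 to 4 held 36.4, 29.9, 37.5 and 21.8 CPM of Ndufs6b, the TAC-mScarlet libraries 28.9, 28.7, 23.9 and 27.8 CPM and the Sham-NT libraries 69.2, 57.8, 28.7 and 49.99 CPM. It is a processed copy of Ndufs6, whose own log2 fold change was -0.76 ± 0.21 (adjusted p = 0.0542), and reads of near-identical copies can be split between them, so its level is uncertain. Ndufb4c was read at 9 to 25 counts in each library. Levels of Ndufb4c were 2.91, 2.65, 2.13 and 1.40 CPM in TAC-BacNav mice 1 to 4, 1.08, 1.246, 1.44 and 1.16 CPM in TAC-mScarlet and 2.38, 2.34, 2.46 and 1.76 CPM in Sham-NT. All TAC-BacNav libraries but TAC-BacNav 4 were above the TAC-mScarlet libraries, and the difference in TAC-BacNav against TAC-mScarlet was the largest of any Nduf gene, 0.86 ± 0.32 (SE; unadjusted p = 0.0176, adjusted p = 0.9995).

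In TAC-BacNav against TAC-mScarlet, where both groups had constriction and an AAV9-MHCK7 vector and differed in BacNav, no Nduf gene was called. That count was 0 of 37 subunit genes and 0 of 8 Ndufaf genes, against 0% of all genes (edgeR's quasi-likelihood test), and DESeq2 and limma-voom called 0 subunits as well. At an unadjusted p below 0.05 there were 0 subunit genes in either direction, against 1.98% of all genes lower and 1.38% higher. Yet 36 of 37 subunit log2 fold changes were above 0, whereas 49.2% of all genes were below 0. The subunit values ran from -0.02 (Ndufb1) to 0.28 (Ndufs8), with a median of 0.19 against 0.00 for all genes. The 37 genes were read in the same mice, so they are not 37 separate observations. In 0 subunit genes did all TAC-BacNav libraries lie above or all below the TAC-mScarlet libraries, against 0.762% and 0.935% of all genes. Each of the 37 intervals (95%) held 0, and they reached from -0.44 to 0.68, with median bounds of -0.18 and 0.53, so with 4 mice a group they held no change as well as rises of that size.

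Ndufs8, the core subunit with the largest difference, shows the pattern. Ndufs8 had 379, 352, 305 and 231 CPM in TAC-BacNav mice 1 to 4, 279, 257, 241 and 264 CPM in TAC-mScarlet mice 1 to 4 and 431, 437, 322 and 390.5 CPM in Sham-NT mice 1 to 4. TAC-BacNav 1 to 3 were above every TAC-mScarlet library and TAC-BacNav 4 was below every one. The log2 fold change in TAC-BacNav against TAC-mScarlet was 0.28 ± 0.15 (SE; unadjusted p = 0.0787, adjusted p = 0.9995). The same order of TAC-BacNav 1 to 3 above all TAC-mScarlet libraries was found in 26 of 37 subunit genes, and TAC-BacNav 4 was the lowest of all 12 libraries in 29. The shares of all genes with these orders were not computed. Leaving out TAC-BacNav 4, picked for its low subunit level, makes the first order easier to meet. Without TAC-BacNav 4 the subunit median was 0.30 and without TAC-BacNav 1 it was 0.10, with 0 subunits called in either fit. On the high-Fos side, with TAC-BacNav 1 and 2 against TAC-mScarlet 1 to 3, the median was 0.30. On the low-Fos side TAC-BacNav 3 and 4 were set against 1 mouse, TAC-mScarlet 4, and the median was 0.02 with 13 of 37 below 0.

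The summed subunit level was 20552.5, 19054, 18493 and 13703.5 CPM in TAC-BacNav mice 1 to 4, and 16946.5, 15999.7, 14865 and 15568 CPM in TAC-mScarlet mice 1 to 4. The ratio to the cardiomyocyte marker sum was 0.227, 0.247, 0.244 and 0.202 in TAC-BacNav and 0.223, 0.223, 0.257 and 0.222 in TAC-mScarlet, and these ranges overlapped. The Ndufaf genes had a median log2 fold change of 0.06 (-0.05 to 0.18), led by Ndufaf4 at 0.18 ± 0.12 (SE). Ndufaf7 had the most negative difference of the Nduf genes, -0.05 ± 0.12 (SE), and its groups overlapped.

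TAC-BacNav and Sham-NT ventricles differed in the same direction as TAC-mScarlet and Sham-NT, with no called subunit. These comparisons share the Sham-NT mice, and the TAC-BacNav mice also enter the comparison of vectors, so their values are given side by side only. In TAC-BacNav against Sham-NT 0 of 37 subunit genes were called, against 0% of all genes lower and 0.0144% higher (edgeR's quasi-likelihood test). DESeq2 and limma-voom also called 0 subunits. At an unadjusted p below 0.05, 29 subunit genes were lower and 0 higher, against 5.31% and 5.79% of all genes. All 37 log2 fold changes were below 0 with TMM scaling and 36 with scaling to the library size, and they ran from -0.78 to -0.07 with a median of -0.42, against 0.01 for all genes. The median was -0.27 without TAC-BacNav 4, -0.54 without Sham-NT 3 and -0.40 without both, with 0 subunits called in each of these fits.

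Ndufv1 was the one subunit gene in which every TAC-BacNav library was below every Sham-NT library, an order found in 2.37% of all genes (3.08% for the opposite order), at a log2 fold change of -0.45 (adjusted p = 0.367). Ndufaf4 was the one Ndufaf gene with that order, and 1 of the 12 tested assembly factors without Nduf names had it too. For Ndufa13 the log2 fold change was -0.60, for Ndufv3 -0.54 and for Ndufab1 -0.46. In 36 of 37 subunit genes the group means were ordered with TAC-mScarlet lowest, TAC-BacNav between and Sham-NT highest. The mean of TAC-BacNav 1 to 3 was below each of Sham-NT 1, 2 and 4 in 35 of 37. For these orders the shares of all genes were not computed. The subunit sums were 17951 ± 2962 CPM in TAC-BacNav, 15845 ± 871 CPM in TAC-mScarlet and 23595 ± 3888 CPM in Sham-NT (SD, n = 4 each), and the first overlaps each of the others.

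The rest of the respiratory chain gave similar values. Of 43 tested genes of complexes II to V, 14 fell and 0 rose in TAC-mScarlet against Sham-NT, against 2.52% and 2.65% of all genes. All 43 were below 0, and the median was -0.58. TAC-BacNav against TAC-mScarlet gave a median of 0.16 for them, and TAC-BacNav against Sham-NT one of -0.41. Mitochondrial ribosomal protein genes serve translation of the mitochondrial subunits. In TAC-mScarlet against Sham-NT 4 of 77 were lower, against 2.52% of all genes, and their median was -0.27. Their median in TAC-BacNav against TAC-mScarlet was 0.08. Differences between these lists were not tested.

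Ubiquinone, the electron acceptor of complex I, is made by the Coq proteins. In TAC-mScarlet against Sham-NT 2 of 13 genes of that list fell, against 2.52% of all genes. Coq7, a hydroxylase of the pathway, was 98.1 ± 16.1 CPM in TAC-mScarlet and 165 ± 21.6 CPM in Sham-NT (SD, n = 4 each; log2 fold change -0.75 ± 0.16 SE, adjusted p = 0.0230). Coq10a, a ubiquinone-binding protein, was 381 ± 49.0 CPM in TAC-mScarlet and 539.9 ± 63.2 CPM in Sham-NT (-0.50 ± 0.14, adjusted p = 0.0444).

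Of 12 regulators of respiratory chain genes, 2 fell in TAC-mScarlet against Sham-NT, against 2.52% of all genes, and the list's median was -0.05. Esrra, the oestrogen-related receptor alpha, was 95.1 ± 13.1 CPM in TAC-BacNav, 83.1 ± 10.7 CPM in TAC-mScarlet and 119 ± 10.6 CPM in Sham-NT (SD, n = 4 each), and its log2 fold change was -0.52 ± 0.13 (SE; adjusted p = 0.0331) in TAC-mScarlet against Sham-NT. Ppargc1a, the coactivator PGC-1 alpha, was 107 ± 31.8 CPM in TAC-BacNav, 65.0 ± 16.4 CPM in TAC-mScarlet and 120.4 ± 31.8 CPM in Sham-NT, with -0.89 ± 0.23 (adjusted p = 0.0426) in TAC-mScarlet against Sham-NT. Ppargc1a in TAC-BacNav against TAC-mScarlet was at 0.72 ± 0.23 (unadjusted p = 0.00770, adjusted p = 0.9995), which did not pass. Its group means hide an order unlike that of the subunits. Ppargc1a was highest of all libraries in Sham-NT 3 (167 CPM) and highest of its group in TAC-BacNav 4 (151 CPM). Those libraries had the lowest subunit level of their groups. The other TAC-BacNav libraries held 75.8 to 101 CPM of Ppargc1a. Esrra was lowest of its group in TAC-BacNav 4 (81.6 CPM).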

How the data were processed

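Ventricular RNA of 12 mice was sequenced as read pairs, per the labels' protocols. The authors deposited whole-number counts per gene, 1 file per mouse. Reads were aligned with HISAT2 and counted with featureCounts, per the submitters' processing notes. Their versions, the strand setting and the handling of multiply matching reads were not given in these sources, so reads of overlapping genes and near-identical copies may be misassigned. The notes name GRCh38, a human build, whereas the identifiers are mouse Ensembl. GENCODE vM21 (GRCm38) held 14474 of the 14957 versioned identifiers and 14946 once versions were dropped. Positions and transcript lengths (median of basic protein-coding transcripts) came from it. The deposited genes had at least 30 counts in all and were above 0 in at least 6 libraries.

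Counts were tested with edgeR 4.0.16 (R 4.3.3). Genes kept by filterByExpr (13910, with 1047 removed) entered one robust quasi-likelihood fit of all 12 libraries with TMM scaling and a common biological coefficient of variation of 0.203. Contrasts of the 3 groups were two-sided, p-values were adjusted by Benjamini-Hochberg over these 13910 genes, and a gene was called below 0.05. DESeq2 1.42.0, limma-voom (limma 3.58.1), other scalings and filters, thinning to the shallowest library and leaving out each library were alternatives. Each mouse is a separate animal, and replicates differed beyond sampling noise (chi-square over degrees of freedom at least 5.35). Intervals of fold changes are for the difference between groups and take the spread between mice into account.

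Members, lists and motifs were chosen with earlier results of these data known. Values of every library are given for the called genes with the smallest p (up to 5 a direction), all Ndufaf genes, Ndufab1, Ndufa4 and Ndufa4l2, the 3 highest and 3 lowest genes per kilobase, and the largest difference between vectors. Ndufs1, Ndufs8 and Ndufs6b outside that rule were chosen after their values were seen. A gene that the rule would name is not reported here. Pseudogene rows with -ps names were left out.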

Additional observations from a re-analysis of the deposited data

Results flagged for a closer look

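In groups of 4 mice, a library was marked where its gap to the nearest other one exceeded Dixon's critical value of the group's range. Over 147 sets of a gene and a group, 11 were marked, and chance alone marks about 1 in 20. The same rule marked no library on the medians or summed levels of the subunit or Ndufaf genes.

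TAC-BacNav 4 was marked as the lowest of its group for Ndufa1 (184 CPM, next 315 CPM), Ndufa11 (124 CPM, next 207 CPM), Ndufab1 (323 CPM, next 444 CPM) and Ndufs7 (176 CPM, next 304 CPM). Sham-NT 3 was marked as the lowest for Ndufa13 (447 CPM, next 791 CPM), Ndufa8 (612 CPM, next 830 CPM) and Ndufb7 (362 CPM, next 626 CPM), and as the highest for Ndufs1 (789 CPM, next 563 CPM). The other marks fell on TAC-mScarlet 4 for Ndufb4 (248 CPM, next 278 CPM), TAC-mScarlet 1 for Ndufb6 (162 CPM, the highest, next 145 CPM) and Sham-NT 4 for Ndufb4c (1.76 CPM, next 2.34 CPM).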

How the results depend on the processing

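In TAC-mScarlet against Sham-NT, the subunits called lower numbered 16, and 10 with library size scaling, 30 with DESeq2, 8 with limma-voom, 30 with the Fos side as a factor, 31 and 0 within its high and low sides, 26 with the length correction, 33 without Sham-NT 3 and TAC-BacNav 4, 30 with both, and 0 to 31 without 1 library. All genes called numbered 719, and 1370 with DESeq2, 467 with limma-voom, 1459 with the Fos factor, 96 on its low side, 1414 without those 2 libraries, 1154 with the length correction as well, and 14 to 1055 without 1 library. Ndufaf genes called numbered 0, and 1 with DESeq2, 2 on the high-Fos side, 1 with the length correction, 1 without both libraries, 1 with both changes, and 0 to 1 without 1 library. In TAC-BacNav against TAC-mScarlet, 5 genes of all were called with DESeq2, 6 with the replicate block, 1 with only these groups and 2 on the high-Fos side, none of them a subunit. In TAC-BacNav against Sham-NT the count over all genes was 2, and 38 with DESeq2, 12 with the replicate block, 1 with only these groups, 8 with the Fos factor, 4 and 34 on its high and low sides, 0 with the length correction, 0 without the 2 libraries, 1 with both, and 0 to 15 without 1 library. The subunit count there was 0, and 1 on the high-Fos side and 1 with both changes. The low-Fos side holds 1 TAC-mScarlet library, assumed to vary like the other groups. The cause of these moves was not tested. The length correction and the joint removal were added after seeing the data.

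The labels do not say whether the mouse numbers pair the samples. Same-numbered correlations ran from -0.29 to 0.38, which does not decide it. In each group mice 1 and 2 were on the high-Fos side and mouse 4 was on the low-Fos side. With mouse number as a block, 17 subunits were called lower in TAC-mScarlet against Sham-NT, with a median of -0.57. All genes called then numbered 889, against 719 without the block. Over 1127 pairs of an Nduf gene and a setting in that comparison, a call was lost in 145, gained in 119, and reversed in sign in 0. Depth limits Ndufb4c, at 9 to 25 counts a library.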
